A study of Mus musculus with 10 samples.

Results

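The transcription factors that set the identity of the hepatocyte were followed in mouse liver after gene transfer of VEGF-A. They were taken by symbol as 9 genes, each with 1 row among the 24016 transcript rows of the table: Hnf4a, Foxa1, Foxa2, Foxa3, Cebpa, Cebpb, Onecut1, Prox1 and Nr1i3. The hepatocyte keeps its program through a network of such factors, which bind the promoters and enhancers of liver genes together and also regulate each other. HNF4A is a nuclear receptor at the centre of that network, the FOXA factors are forkhead proteins that can open closed chromatin, and CEBPA and CEBPB are leucine zipper factors of metabolism and of the acute phase. ONECUT1 (HNF6) is a cut-homeodomain factor of liver and bile duct development, PROX1 is a homeodomain factor of hepatocytes and of lymphatic endothelium, and NR1I3 (CAR) is the nuclear receptor that switches on drug-metabolizing enzymes.

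Ribosome-depleted total liver RNA was sequenced from 10 adult male C57BL/6 mice on day 6 after an injection into the tail vein, followed by perfusion with PBS. The AdVEGF group, 5 mice, received an adenovirus that expresses VEGF-A from the CMV promoter, which is active in many cell types. The AdCMV group, 5 mice, received the same kind of vector with the CMV promoter and no transgene, so that all 10 mice had an adenovirus and none was left without a vector. Each library is from 1 mouse, and the liver was sequenced whole, so that fewer cells of a type and less RNA per cell cannot be told apart.

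Values are RPKM, which counts the reads on a kilobase of transcript as a share of a library's mapped tags. Mapped tags, recovered from the steps of the RPKM, ranged from 5758959 to 13494003 in the AdCMV group and from 5596565 to 8133955 in the AdVEGF group. Reads summed over the rows exceeded the tags in every library (14995762 against 13494003 in AdCMV 2), so the tags and the reads on rows do not have the same basis. The major urinary protein (Mup) genes took between 18.0% and 50.5% of the reads on genes in AdCMV livers and between 7.84% and 28.6% in AdVEGF livers, and the median log2 fold change over all 13933 rows tested was 0.38 on deposited RPKM. After median-ratio scaling, which divides each library by the median ratio of its genes to a common reference, that median was -0.0035. Both scales are therefore given for every member, as deposited RPKM and as scaled RPKM. Of the 11 hepatocyte markers found in the table, the summed deposited level was between 23401 and 28714 RPKM in AdCMV livers and between 43564 and 57171 RPKM in AdVEGF livers, so the labelled tissue carried its defining genes in every library.

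The liver AdVEGF 4 stood apart from the other 4 of its group before any member was considered. Its Saa1, a serum amyloid A protein of the acute phase, was at 4298 RPKM, where the other AdVEGF livers were between 30.3 and 146 RPKM and the AdCMV livers between 212 and 389 RPKM. Its Lcn2, the iron-siderophore binder lipocalin 2, was at 1599 RPKM against 9.06 to 36.8 RPKM in the other AdVEGF livers. Its Cyp1a2, a cytochrome P450 of the pericentral hepatocyte, was at 1.37 RPKM against 32.6 to 54.5 RPKM. The results that follow are given with this liver, and again without it where that moves them.

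The upstream sequences of the FOXA genes and of Hnf4a are shown because Foxa3 and Hnf4a carry the differences described below, and Foxa1 and Foxa2 are the relatives against which Foxa3 can be read. Each is the 250 bases before a RefSeq start site in GRCm38.p6, printed along the strand of the gene. Foxa3 lies at chr7:19023540-19023789 (minus strand), Foxa1 at chr12:57546112-57546361 (minus strand), Foxa2 at chr2:148045465-148045714 (minus strand, the start site whose span equals that of the table's transcript) and Hnf4a at chr2:163546905-163547154 (plus strand, the start site used in adult liver). Capitals mark matches, on either strand, to 10 short motifs. These are the forkhead motifs TGTTTAC and TGTTTGC, the HNF1 motif GTTAAT, the nuclear receptor motif AGGTCA and the HNF4 motif CAAAGTCCA. The others are the C/EBP motif TTGCNNAA, the ONECUT motif ATTGAT, the CCAAT box, the TATA motif TATAAA and the GC box GGGCGG. The HNF1 and nuclear receptor motifs are each only a part of the full site. No match overlapped another in these windows.
Foxa3: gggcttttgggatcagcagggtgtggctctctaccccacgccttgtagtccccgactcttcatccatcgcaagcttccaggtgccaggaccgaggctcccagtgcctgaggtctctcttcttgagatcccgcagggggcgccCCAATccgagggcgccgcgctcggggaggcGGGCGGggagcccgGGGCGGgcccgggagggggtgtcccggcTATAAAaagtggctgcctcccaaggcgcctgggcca
Foxa1: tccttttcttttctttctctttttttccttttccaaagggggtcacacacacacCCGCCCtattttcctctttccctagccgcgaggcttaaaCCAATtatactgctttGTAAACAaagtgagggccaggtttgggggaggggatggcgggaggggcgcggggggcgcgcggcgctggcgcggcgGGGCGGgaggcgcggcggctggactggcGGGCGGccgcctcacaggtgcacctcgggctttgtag
Foxa2: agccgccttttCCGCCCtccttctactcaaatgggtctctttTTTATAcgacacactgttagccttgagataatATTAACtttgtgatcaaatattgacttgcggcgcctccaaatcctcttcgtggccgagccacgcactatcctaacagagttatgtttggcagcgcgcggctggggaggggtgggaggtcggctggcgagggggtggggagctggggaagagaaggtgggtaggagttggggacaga
Hnf4a: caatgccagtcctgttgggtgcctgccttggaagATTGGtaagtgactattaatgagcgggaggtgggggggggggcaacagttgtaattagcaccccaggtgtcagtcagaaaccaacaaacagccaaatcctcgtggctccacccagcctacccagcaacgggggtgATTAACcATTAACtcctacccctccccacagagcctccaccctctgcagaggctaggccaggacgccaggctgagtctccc

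The Foxa3 window held a TATAAA at position -36 from the start site, GC boxes at -78 and -64 and a CCAAT at -108. Among 32851 RefSeq windows of the same length, TATAAA was found in 12.4%, the GC box in 32.7% and CCAAT in 33.8%. Foxa1 had a forkhead match at -141, a motif found in 3.17% of windows, with a CCAAT at -157 and GC boxes at -196, -65 and -37. The Foxa2 window had an HNF1 motif at -176, a TATAAA at -208 and a GC box at -239. Hnf4a had HNF1 motifs at -81 and -74, the motif being present in 6.43% of windows, and a CCAAT at -216. The HNF4 motif (0.384% of windows), the C/EBP motif (9.56%), the nuclear receptor motif (14.0%), TGTTTGC (4.30%) and the ONECUT motif (6.72%) had no match in the 4 windows shown. In windows not shown, the ONECUT motif was found at -59 from another start site of Hnf4a and at -213 from another of Foxa2. GC content was 68.8% for Foxa3, 62.0% for Foxa1, 54.4% for Foxa2 and 57.6% for Hnf4a, against a median of 52.4% over all windows. These matches describe letters in the windows, and binding was not measured.

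In mm9, the build named in the submitters' processing notes, Foxa3 (NM_008260) lies at chr7:19598632-19608888 on the minus strand and Hnf4a (NM_008261) at chr2:163372924-163398643 on the plus strand. Foxa1 (NM_008259) lies at chr12:58641619-58647108, Foxa2 (NM_001291067) at chr2:147868613-147871200, Cebpa (NM_001287523) at chr7:35904312-35906947 and Cebpb (NM_009883) at chr2:167514415-167515932. Onecut1 (NM_008262) lies at chr9:74709728-74737454, Prox1 (NM_008937) at chr1:191945658-191994559 and Nr1i3 (NM_001243063) at chr1:173144101-173148976. Reads were counted per transcript, and the genes in question run from the single exon of Cebpa and Cebpb to the 10 exons of Hnf4a in GENCODE M21. Some share exonic bases with a gene on the opposite strand: 312 of 1504 bases of Cebpb with Tmem189, which itself was at 1.19 to 5.09 RPKM, 51 of 2626 of Cebpa with Gm45091 and 133 of 7913 of Prox1 with Prox1os. No such overlap was annotated for the transcripts of the FOXA genes and Hnf4a.

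All 9 factors were detected in all 10 livers, and their mean levels had the same order in both groups. In AdCMV livers the order of mean deposited RPKM, which is a level per length, was Cebpb at 86.4 ± 16.2 (SD, n = 5), Hnf4a at 62.7 ± 21.3, Cebpa at 48.4 ± 12.2, Foxa3 at 23.3 ± 3.32, Nr1i3 at 16.5 ± 4.38, Foxa2 at 12.8 ± 3.12, Prox1 at 6.61 ± 2.66, Onecut1 at 4.49 ± 1.97 and Foxa1 at 4.02 ± 1.52. Most neighbours in this order overlapped in their ranges. In AdCMV livers, only Cebpa and Foxa3 were neighbours whose ranges did not overlap, and in AdVEGF livers only Foxa3 and Nr1i3 were. Levels of Onecut1 and Prox1 rest on the short transcripts of the table, 1819 and 4128 bases against 3957 and 7913 exonic bases in GENCODE, so that their place in the order is less firm than that of the others.

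Foxa3 came closest to its upper neighbour in AdVEGF livers. It stood below Cebpa in all 5 AdCMV livers and in 4 of 5 AdVEGF livers, and its range reached that of Cebpa in the AdVEGF group. The reads behind the values ranged from 1351 to 2889 for Hnf4a, from 537 to 2178 for Cebpb and from 308 to 910 for Foxa3, but only from 12 to 123 for Onecut1 and from 49 to 164 for Foxa1. The lowest of these, 12 reads for Onecut1 in AdVEGF 5, leaves a wide counting error.

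**Figure D1:**
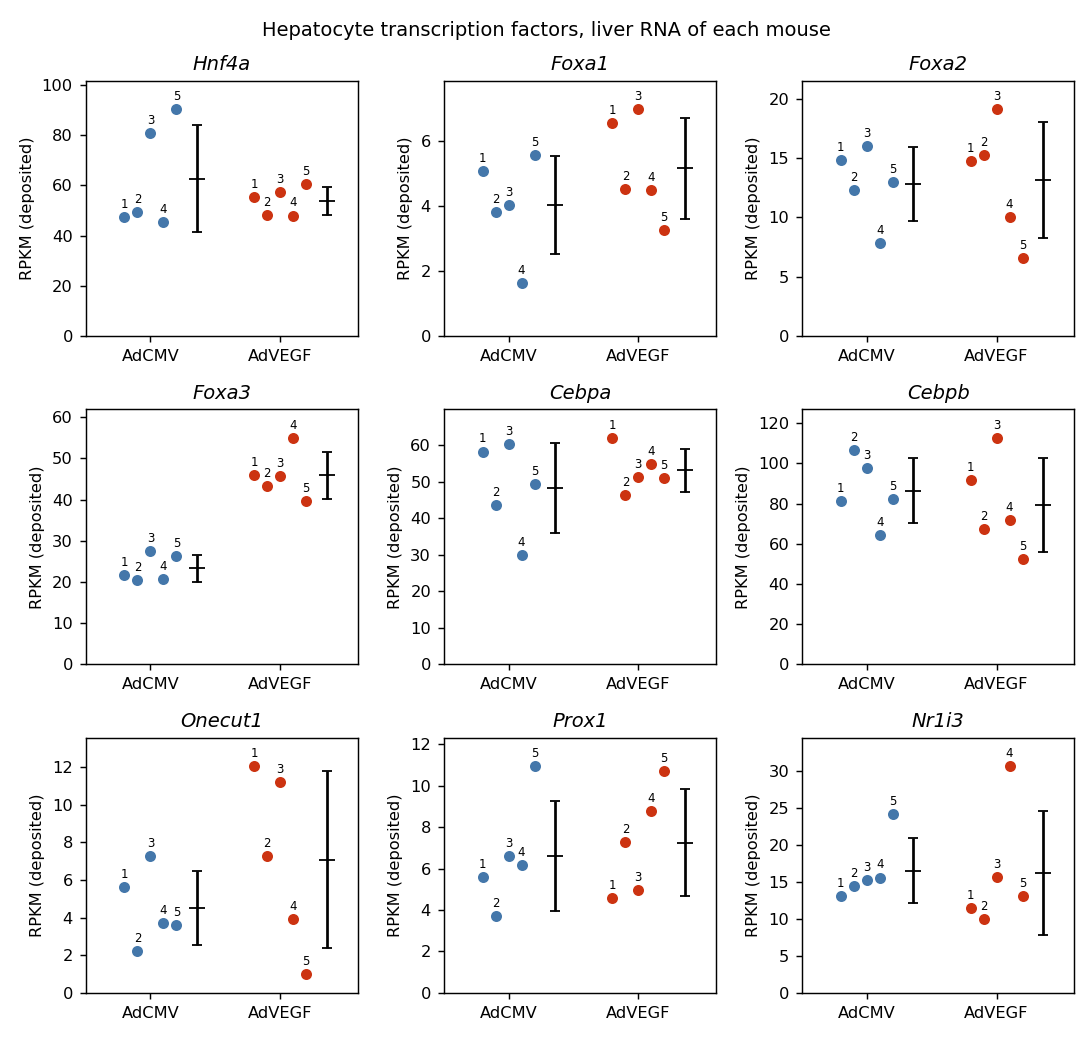
Deposited RPKM of the 9 factors in each of the 10 livers, 1 panel per gene with a linear axis from 0, with points numbered by mouse (AdCMV blue, AdVEGF red) and the mean ± SD of each group beside them. Foxa3 is the gene in which all 5 AdVEGF livers, between 39.6 and 55.0 RPKM, sit above all 5 AdCMV livers, between 20.5 and 27.5 RPKM, and the other 8 genes overlap.

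The first question was whether any of these factors changed when VEGF-A was expressed in the liver. On deposited RPKM, tested with limma over all 13933 rows, none of the 9 passed an adjusted p under 0.05 together with a log2 fold change beyond 1 in either direction, where 13.0% of all rows were called higher and 1.54% lower. At an adjusted p under 0.05 and any fold change, 1 member was higher, Foxa3, against 21.9% of all rows, and none was lower, against 2.23%. The groups did not overlap for 1 member, again Foxa3, above; 14.3% of rows lay wholly above and 1.29% wholly below. The unadjusted p was under 0.05 for 1 of the 9, and limma voom on the reads recovered from the values also called 0 at the fold change of 1. The median log2 fold change of the 9 members was 0.14, below the median of 0.38 over all rows, with 5 members above 0 and 4 below.

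After median-ratio scaling the members' median was -0.25, against -0.0035 over all rows, with 2 members above 0 and 7 below. No member passed the fold change of 1, where 7.77% of rows were called higher and 3.13% lower. At any fold change 1 member was higher, Foxa3, against 12.7% of rows, and 2 were lower, Hnf4a and Cebpb, against 10.2%. Foxa3 alone did not overlap, where 10.6% of rows lay wholly above and 7.11% wholly below. The 1 member in 9 called higher is near the share of all rows, and the 2 in 9 called lower are above it, a difference that 9 genes are too few to resolve.

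**Figure D2:**
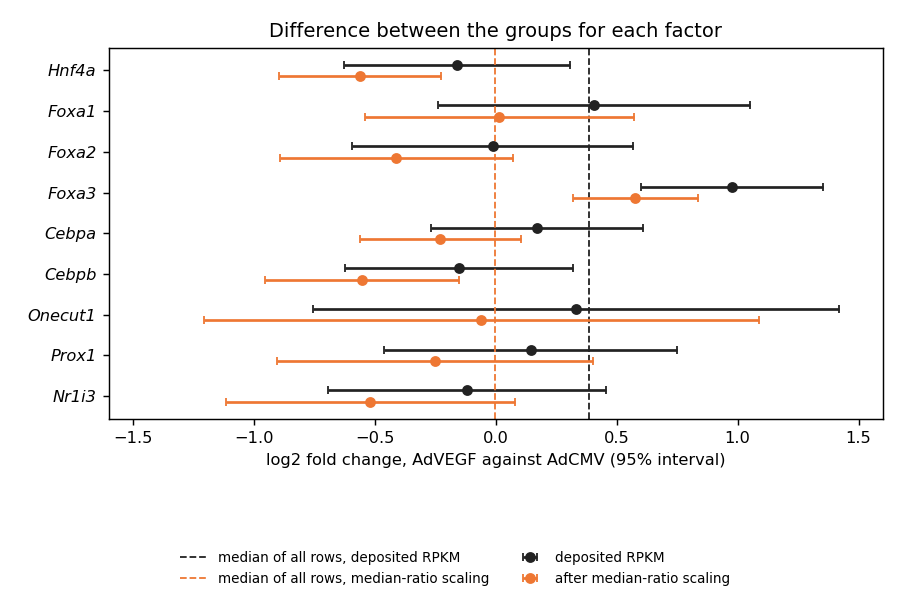
Log2 fold change of AdVEGF against AdCMV for each of the 9 factors with its 95% interval from limma, on deposited RPKM and after median-ratio scaling, with a dashed line at the median of all rows for each scale. Foxa3 lies above 0 on both scales (0.98 and 0.58), and the intervals of Hnf4a and Cebpb reach below 0 without crossing it only after scaling.

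Foxa3 was the factor that rose. FOXA3, also called HNF3-gamma, is the forkhead protein of the family that takes part in the control of glucose metabolism in the adult liver. Its deposited level was 21.7, 20.5, 27.5, 20.6 and 26.3 RPKM in AdCMV 1 to 5 and 45.8, 43.4, 45.7, 55.0 and 39.6 RPKM in AdVEGF 1 to 5. All 5 AdVEGF livers were above all 5 AdCMV livers, with AdVEGF 4 the highest and AdVEGF 5 the lowest of the AdVEGF group. The means were 23.3 ± 3.32 and 45.9 ± 5.67 RPKM (SD, n = 5), a log2 fold change of 0.98 (SE 0.18, 95% interval 0.60 to 1.36) or 1.97-fold, with an adjusted p of 0.000723 in limma. That is just short of the fold change of 1, which it passed without AdCMV 3 (1.04), AdCMV 5 (1.02) or AdVEGF 5 (1.03).

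Scaled Foxa3 was 27.7, 25.3, 22.4, 31.1 and 26.5 in the AdCMV livers and 39.2, 36.9, 36.5, 45.8 and 39.6 in the AdVEGF livers. The groups again did not overlap. The scaled log2 fold change was 0.58 (SE 0.12, 95% interval 0.32 to 0.84), or 1.49-fold, with an adjusted p of 0.00384. Of all rows tested, 84.8% had a lower deposited log2 fold change than Foxa3. The size of the rise thus depended on the scale, and its direction did not. Without AdVEGF 4 the deposited log2 fold change was 0.91 (adjusted p 0.00230) and the scaled 0.52 (adjusted p 0.00789).

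The other 2 FOXA genes did not pass the test on either scale. FOXA1 and FOXA2 prepare liver enhancers in the embryo and share most of their sites in the adult. Foxa1 was between 1.63 and 5.56 RPKM in AdCMV livers and between 3.27 and 6.96 RPKM in AdVEGF livers, with a deposited log2 fold change of 0.41 (95% interval -0.24 to 1.05, adjusted p 0.333) and a scaled one of 0.015 (adjusted p 0.978). Foxa2 was between 7.85 and 16.0 RPKM in AdCMV livers and between 6.54 and 19.1 RPKM in AdVEGF livers, with log2 fold changes of -0.014 (95% interval -0.60 to 0.57, adjusted p 0.974) and -0.41 (adjusted p 0.207).

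Foxa3 was already the largest part of FOXA mRNA per length, and its part was larger in AdVEGF livers. It made up 52.2% to 68.5% of the summed RPKM of the 3 genes in AdCMV livers, with a median of 57.9%, and 63.7% to 80.1% in AdVEGF livers, with a median of 68.7%. The summed deposited RPKM itself was 30.1 to 47.5 in AdCMV livers and 49.4 to 71.8 in AdVEGF livers, with no overlap. On that scale 14.3% of single rows lay wholly above. After median-ratio scaling the sums overlapped, that of AdCMV 1 lying above that of AdVEGF 5. The ratio of Foxa3 to Foxa2 within a library, which does not depend on the scaling between libraries, was 1.47 to 2.63 in AdCMV livers and 2.40 to 6.05 in AdVEGF livers. Its mean log2 ratio was 0.99 higher in AdVEGF livers, with 4 of 5 livers above all AdCMV livers (exact permutation p 0.0159, two-sided, adjusted p 0.111 over 7 ratios), so it did not pass the threshold after adjustment. With 7 ratios, a lone ratio cannot pass it even at the smallest p of this design. The ratio of Foxa1 to Foxa2 differed by 0.42 on the log2 scale (exact permutation p 0.0952, adjusted p 0.306).

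Relative to Hnf4a, Cebpa and Cebpb, 3 of the 8 other factors, Foxa3 stood higher in every AdVEGF liver than in any AdCMV liver. These ratios were chosen after the values of Foxa3 had been seen and are given as a description. Foxa3 per Hnf4a was 0.291 to 0.459 in AdCMV livers and 0.655 to 1.15 in AdVEGF livers. Foxa3 per Cebpa was 0.372 to 0.686 and then 0.739 to 1.00, and Foxa3 per Cebpb was 0.192 to 0.320 and then 0.406 to 0.764. None of these 3 pairs overlapped between groups. On deposited values, 12%, 31% and 12% of all rows had a lower log2 fold change than Hnf4a, Cebpa and Cebpb, against 85% for Foxa3. How often the ratio of any row to these 3 genes would not overlap was not computed. The ratios of Foxa3 to Foxa1, Foxa2, Onecut1, Prox1 and Nr1i3 overlapped. Of the 28 pairs of members without Foxa3, 0 had ratios that did not overlap.

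**Figure D3:**
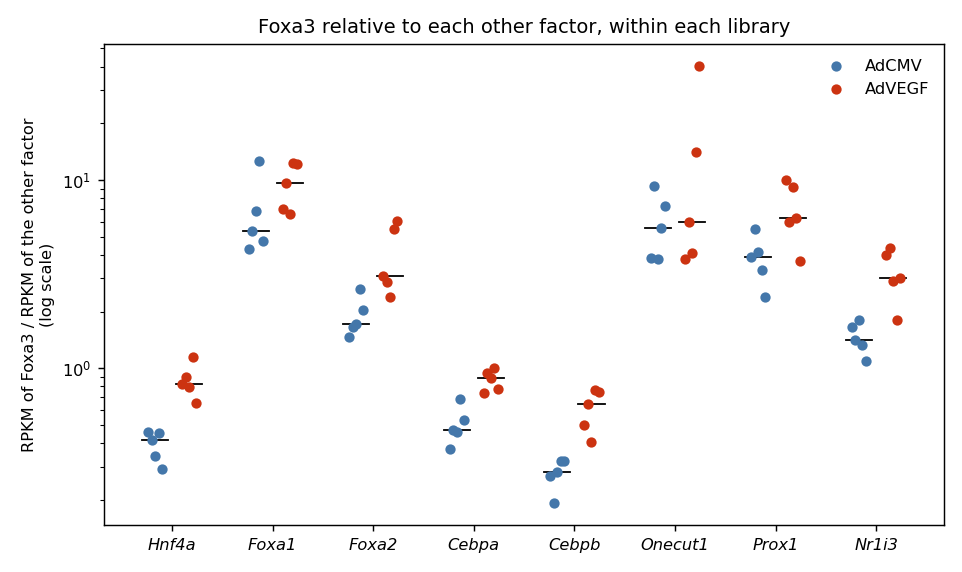
Ratio of Foxa3 RPKM to the RPKM of each of the other 8 factors within a library (log axis), for the 5 AdCMV and the 5 AdVEGF livers. The ratios to Hnf4a, Cebpa and Cebpb do not overlap between the groups (for Hnf4a 0.291 to 0.459 against 0.655 to 1.15), and the ratios to the other 5 do.

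Hnf4a did not pass the test on deposited values and was lower after scaling. Its deposited level was 47.3, 49.3, 81.0, 45.5 and 90.3 RPKM in AdCMV 1 to 5 and 55.3, 48.1, 57.4, 48.0 and 60.4 RPKM in AdVEGF 1 to 5. AdCMV 3 and AdCMV 5 were far above the other 3 AdCMV livers, and the AdVEGF livers lay within the AdCMV range. The deposited log2 fold change was -0.16 (95% interval -0.63 to 0.30, adjusted p 0.603). Scaled, the AdCMV livers were at 60.3, 60.8, 66.1, 68.4 and 91.0 and the AdVEGF livers at 47.4, 40.9, 45.8, 40.0 and 60.5. After scaling 4 of 5 AdVEGF livers were below all AdCMV livers, with AdVEGF 5 at about the lowest of them. The scaled log2 fold change was -0.56 (95% interval -0.90 to -0.23, adjusted p 0.0195), and -0.51 without AdVEGF 4 (adjusted p 0.0397). The call was lost without AdVEGF 2 (-0.52, adjusted p 0.0525), under upper quartile scaling (-0.49, adjusted p 0.0536) and with library totals that leave out the Mup genes (-0.50, adjusted p 0.0530), at fold changes close to the full one.

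Neither C/EBP factor passed the test on deposited values. CEBPA supports the metabolic program of the resting hepatocyte, and CEBPB rises classically with inflammation and regeneration. Cebpa was 30.1 to 60.3 RPKM in AdCMV livers and 46.3 to 62.1 RPKM in AdVEGF livers, with log2 fold changes of 0.17 on deposited (95% interval -0.27 to 0.61, adjusted p 0.554) and -0.23 on scaled values (adjusted p 0.312), so that the sign turned with the scale.

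Cebpb was 81.1, 107, 97.5, 64.6 and 82.2 RPKM in AdCMV 1 to 5 and 91.7, 67.5, 113, 72.0 and 52.7 RPKM in AdVEGF 1 to 5. The highest and the lowest of all 10 values were both in the AdVEGF group. Its deposited log2 fold change was -0.15 (95% interval -0.62 to 0.32, adjusted p 0.631) and its scaled one -0.55 (95% interval -0.95 to -0.15, adjusted p 0.0483). The scaled call held without AdCMV 3, AdCMV 5 or AdVEGF 3 and was lost when any of the other 7 was left out, AdVEGF 4 included (adjusted p 0.0843). It was also lost under upper quartile scaling (-0.48, adjusted p 0.0611) and with library totals without the Mup genes (-0.49, adjusted p 0.0580). AdVEGF 4, the liver with the high acute phase genes, had 72.0 RPKM of Cebpb, near the middle of its group. The ratio of Cebpb to Cebpa was 1.39 to 2.44 in AdCMV livers and 1.03 to 2.19 in AdVEGF livers, and its log2 difference of -0.32 did not pass the test (exact permutation p 0.175, adjusted p 0.306). Cebpb is also expressed by myeloid cells. Of 10 macrophage markers tested, 3 were called higher on deposited values, where 13.0% of all rows were (summed level 104 to 218 RPKM in AdCMV and 218 to 347 RPKM in AdVEGF livers). Of 7 neutrophil markers 4 were, or 2 of 6 tested without AdVEGF 4. These 4 were low, with the highest AdVEGF mean, that of Mpo, at 2.37 RPKM. S100a8, S100a9 and Cxcr2 were not called. The summed neutrophil level overlapped, at 28.1 to 119 RPKM in AdCMV and 31.4 to 216 RPKM in AdVEGF livers. The part of myeloid cells in the Cebpb level was not tested.

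Onecut1 had the highest coefficient of variation of the 9 on deposited values, 43.9% in AdCMV and 66.6% in AdVEGF livers. It was 5.62, 2.20, 7.26, 3.73 and 3.63 RPKM in AdCMV 1 to 5 and 12.0, 7.25, 11.2, 3.92 and 0.98 RPKM in AdVEGF 1 to 5. The highest and the lowest value, 12.3-fold apart, were both in AdVEGF livers. The deposited log2 fold change of 0.33 had a 95% interval from -0.76 to 1.42 (adjusted p 0.648), and the scaled one was -0.060 (adjusted p 0.955), an interval too wide to tell a rise of 1 from no change. Without AdVEGF 5 the deposited value was 0.91 (adjusted p 0.0733). In GENCODE, 2171 of the 3957 exonic bases of Onecut1 are shared with Gm20649, a noncoding gene on the same strand, so that reads there cannot be told apart.

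Prox1 did not pass the test on either scale. It was 3.73 to 10.9 RPKM in AdCMV livers and 4.57 to 10.7 RPKM in AdVEGF livers, with log2 fold changes of 0.14 on deposited values (95% interval -0.46 to 0.75, adjusted p 0.729) and -0.25 on scaled values (adjusted p 0.596). Prox1 also marks lymphatic endothelium. Of 6 lymphatic endothelial markers tested, 5 were called higher on deposited values, where 13.0% of all rows were. The median log2 fold change was 1.68, and the summed level of the list was 19.6 to 38.4 RPKM in AdCMV and 74.4 to 115 RPKM in AdVEGF livers. The 8 general endothelial markers, all called higher, had a median of 2.68. Ccl21a fell short of the fold change of 1 (0.97, adjusted p 0.0334 in limma). Of the defining markers, Mmrn1 was listed at 0 in all 10 livers, and Pdpn had a mean of 0.218 RPKM in AdCMV and 0.296 RPKM in AdVEGF livers. Which cells carried the rises of the 5 called markers was not tested, nor was the part of lymphatic endothelium in the Prox1 level.

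Nr1i3 had 2 high livers, 1 in each group. It was 13.1, 14.5, 15.3, 15.6 and 24.2 RPKM in AdCMV 1 to 5 and 11.4, 10.0, 15.7, 30.6 and 13.1 RPKM in AdVEGF 1 to 5. AdCMV 5 and AdVEGF 4 were above the other 8 livers, which lay between 10.0 and 15.7 RPKM. The log2 fold change was -0.12 on deposited values (95% interval -0.70 to 0.46, adjusted p 0.762) and -0.52 on scaled values (95% interval -1.12 to 0.077, adjusted p 0.199). Without AdVEGF 4 they were -0.38 and -0.76, and the scaled one then passed the threshold (adjusted p 0.0201). On the opposite strand, Tomm40l covers 932 of the 1359 exonic bases of Nr1i3 in GENCODE, and how the counting treated strand is not given in the sources used here. Tomm40l, a mitochondrial outer membrane protein gene, was itself 11.2 to 14.6 RPKM in AdCMV livers, highest in AdCMV 5, and 11.8 to 23.3 RPKM in AdVEGF livers, highest in AdVEGF 4, and reads from the shared bases cannot be told apart.

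Ratios of the remaining factors to Hnf4a did not pass the test. The log2 ratio was 0.33 higher in AdVEGF livers for Cebpa (exact permutation p 0.167, adjusted p 0.306), 0.49 for Onecut1 (exact p 0.532, adjusted p 0.620), 0.30 for Prox1 (exact p 0.333, adjusted p 0.467) and 0.041 for Nr1i3 (exact p 0.905, adjusted p 0.905). None of the 7 ratios tested had an adjusted p under 0.05. The smallest p this design allows is 0.00794, and after adjustment over 7 ratios a lone ratio at that p would not pass 0.05. A ratio that did not pass is therefore not shown to be unchanged.

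Among other transcription factors of the liver, the calls on deposited RPKM were about as frequent as among all rows. Of 38 tested, 5 were called higher and 1 lower, beside 13.0% and 1.54% of all rows (median log2 fold change 0.29). After scaling 0 were called higher and 1 lower, beside 7.77% and 3.13% of all rows, with a median of -0.11. Tbx3, a T-box factor of pericentral hepatocytes, was the gene called lower: 1.97 to 5.51 RPKM in AdCMV and 1.22 to 1.72 RPKM in AdVEGF livers, a log2 fold change of -1.43 (adjusted p 0.00184) and -1.81 after scaling (adjusted p 0.000331). The 4 largest rises called on deposited values were Dbp at 2.05 (adjusted p 0.0257), Gata4 at 1.32 (adjusted p 0.000489), Tef at 1.20 (adjusted p 0.0196) and Nr2f2 at 1.10 (adjusted p 0.00297). Dbp and Tef are clock-controlled PAR-zipper factors, and Gata4 and Nr2f2 are also factors of endothelial and stromal cells. All 8 endothelial markers tested were called higher on both scales, with a median deposited log2 fold change of 2.68 and a summed level of 21.4 to 45.6 RPKM in AdCMV and 199 to 216 RPKM in AdVEGF livers, and their part in the rises of Gata4 and Nr2f2 was not tested. Without AdVEGF 4 the counts were 3 higher and 1 lower on deposited values, Dbp and Tef no longer being called, and 1 higher and 3 lower after scaling.

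Of 18 partners and co-regulators of the members tested, 0 were called in either direction on either scale, with medians of 0.25 deposited and -0.14 scaled. Of all rows, 13.0% were called higher and 1.54% lower on deposited values, and 7.77% and 3.13% after scaling. Without AdVEGF 4, 1 partner was lower after scaling, Nr0b2, the corepressor SHP, at -1.03 (adjusted p 0.0211). With all livers, 3 partners were higher at any fold change in limma on deposited values, among them the Groucho corepressor Tle3 at 0.77 (adjusted p 0.0254). After scaling, 1 was lower, Hsp90aa1, the cytosolic chaperone that holds NR1I3, at -0.99 (adjusted p 0.000132).

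Genes named as targets of these factors were taken as lists with members in common, such as G6pc, Pck1, Ttr and Alb. Whether a factor raises or lowers each gene of its list was not considered. Their counts stand beside shares of all rows of 13.0% higher and 1.54% lower on deposited values, and 7.77% and 3.13% after scaling. Of 15 HNF4A targets tested, 0 were called higher and 1 lower, with a median of -0.094, and after scaling 0 and 2, with a median of -0.50. The gene called lower on both scales was Cyp8b1, the sterol 12-alpha-hydroxylase of bile acid synthesis, at 57.4 ± 17.7 RPKM in AdCMV and 24.5 ± 13.2 RPKM in AdVEGF livers (SD, n = 5), a log2 fold change of -1.36 (adjusted p 0.0138). Cyp7a1, the rate-limiting enzyme of that pathway, was lower only after scaling, at -1.11 (adjusted p 0.0480), and without AdVEGF 4 it was at -1.12 and no longer called (adjusted p 0.0693), which left 1 of the 15 lower. Of 8 ONECUT1 targets, which include Foxa2 and Hnf4a themselves, 0 were called on deposited values, with a median of -0.088, and 2 were lower after scaling, Cyp7a1 and the glycolytic regulator Pfkfb1, with a median of -0.49 (1 without AdVEGF 4).

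Targets of the FOXA and C/EBP factors had deposited log2 fold changes from -1.47 for G6pc (adjusted p 0.0810) to 1.88 for Hamp. Without AdVEGF 4 these 2 genes were at -0.76 (adjusted p 0.142 in limma) and 1.98. Of 8 FOXA targets 1 was called higher, Alb, the albumin gene, at 1.14 (adjusted p 0.00768), and none after scaling (Alb 0.74, adjusted p 0.168), with list medians of 0.44 and 0.066. Of 10 C/EBP targets 2 were called higher, Alb and Hamp, with medians of 0.39 and -0.010. Hamp, which encodes the iron hormone hepcidin and is also a target of BMP signalling, was 519 to 988 RPKM in AdCMV and 2021 to 3871 RPKM in AdVEGF livers, a log2 fold change of 1.88 (adjusted p 4.11e-05) and 1.47 after scaling (adjusted p 0.00485). Of 9 acute phase genes 0 were called on either scale with all livers, and 3 were lower on both scales without AdVEGF 4, with medians of -0.22 and -0.60. Saa1 was 1 of these, at -2.09 on deposited values (adjusted p 0.000378), though Saa1 and Saa2 are near-identical genes and their reads are uncertain.

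The drug-metabolism targets of NR1I3 had the lowest median among the lists of targets. Of 14 tested, 0 were called higher and 2 lower on deposited RPKM (median log2 fold change -0.57), where 1.54% of all rows were lower, and 5 were lower after scaling, with a median of -0.96, where 3.13% of all rows were. Cyp2a5, a coumarin 7-hydroxylase, was 114, 161, 921, 64.1 and 128 RPKM in AdCMV 1 to 5 and 20.1, 8.14, 52.1, 3.46 and 13.3 RPKM in AdVEGF 1 to 5. The groups did not overlap, with AdCMV 3 far above the other AdCMV livers, and the log2 fold change was -3.67 (adjusted p 0.000522). Cyp2b9 fell by 1.98 on the log2 scale (adjusted p 0.00953) from a mean of 0.847 RPKM, few reads in any library. Cyp3a11, the main CYP3A enzyme, was at -0.91 (adjusted p 0.0399), short of the fold change, and at -1.31 after scaling (adjusted p 0.00501). Without AdVEGF 4 it was at -0.64 on deposited values (adjusted p 0.0879) and at -1.03 after scaling (adjusted p 0.00173). Cyp2b10, the classical NR1I3 target, did not pass the test, at 0.73 (adjusted p 0.124).

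Without AdVEGF 4, whose Cyp1a2 was lowest, 2 of the 14 NR1I3 targets were lower on deposited and 4 on scaled values, with medians of -0.40 and -0.78. Nr1i3 itself had its highest value in AdVEGF 4, the liver in which Cyp1a2 and Cyp2a5 were at their lowest. Reads of the near-identical Cyp2a4 and Cyp2a5 and of Cyp2b9, Cyp2b10 and Cyp2b13 may be split between them. Bile duct cells also express Foxa1, Foxa2 and Onecut1. Of 8 bile duct markers tested, 1 was called higher at the fold change of 1 on deposited RPKM, where 13.0% of all rows were. It was Spp1, which other liver cells also express (a mean of 35.2 RPKM in AdCMV and 531 RPKM in AdVEGF livers). The summed level of the list was 40.2 to 90.4 RPKM in AdCMV and 308 to 756 RPKM in AdVEGF livers, a rise that was mostly that of Spp1. Sox9, a factor of the duct lineage, was higher at any fold change on deposited values, from a mean of 5.34 to 10.1 RPKM with no overlap (0.88, adjusted p 0.00653), and at 0.49 after scaling (adjusted p 0.106). Krt19 and Epcam had means of 0.536 and 0.700 RPKM in AdVEGF livers, and Krt7 and Cftr were too low to be tested. The part of these cells in the levels of the 3 factors was not tested. Of the 11 hepatocyte markers tested, 3 were called higher on deposited RPKM, Ahsg, Apoa1 and Alb, and 1 after scaling, Ahsg, the gene of the plasma protein fetuin A, at 1.27 (adjusted p 0.00919).

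**Figure D4:**
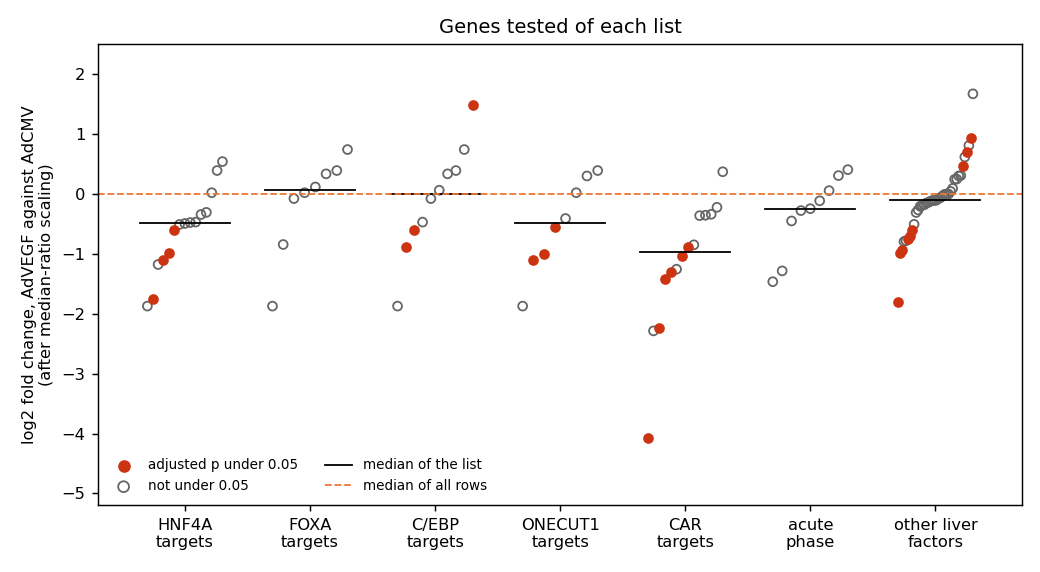
Log2 fold change after median-ratio scaling of every tested gene in the lists of targets, acute phase genes and other liver factors, filled where the adjusted p is under 0.05, with a bar at the median of each list and a dashed line at the median of all rows (-0.0035). The targets of HNF4A, ONECUT1 and NR1I3 (CAR) have medians of -0.50, -0.49 and -0.96, and those of FOXA and C/EBP 0.066 and -0.010.

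For each factor, the genes whose profile over the 10 livers was most like its own were found by the root mean square difference of centred log2(RPKM + 0.1) among 12268 rows. For Foxa3 these were Lmbr1 (0.093), Nde1 (0.093) and Actn4 (0.11), where the median over all rows was 0.46. For Hnf4a they were Scarb2 (0.12), Proser2 (0.12) and Itpr2 (0.12). For Nr1i3 the nearest was Itih4 (0.17), an acute phase gene that was also highest in AdVEGF 4 at 549 RPKM. For Onecut1, with few reads, even the nearest, Jchain, was at 0.57. The nearest were Gpr180 (0.10) for Cebpa, Tssc1 (0.14) for Cebpb, Lpxn (0.18) for Foxa2, Clec4a3 (0.22) for Foxa1 and Ccdc149 (0.27) for Prox1. These are likenesses over 10 libraries, in which the depth and the Mup share of a library act on all its genes.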

How the data were processed

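Liver RNA of 10 mice was analysed, 5 per group, on day 6. The authors mapped reads with TopHat to mm9, scaled every library to the same number of uniquely mapped tags and deposited the result as RPKM for 24016 RefSeq rows, with HOMER also named in the submitters' processing notes; strand handling is not given in the sources used here. The deposited table also holds the authors' own log fold changes and FDR values, which were not used. Samples were grouped by their labels.

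Log2(RPKM + 0.1) was tested with limma (version 3.58.1, R 4.3.3; lmFit, eBayes with trend), two-sided, over the 13933 rows with a mean above 0.5 RPKM in 1 group or both. P-values were adjusted by Benjamini-Hochberg, and rows were called with an adjusted p under 0.05 together with a log2 fold change beyond 1, or at any fold change. On this scale the fold changes of low genes are understated. The 5 rows with no symbol, at most 0.00534% of a library's reads, were left out. Reads behind the values were recovered from the steps of the RPKM, of which 99.969% to 99.994% were whole within 0.1, and were used for voom and for the depths; these cover counting error only.

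Ratios between members within a library were compared by exact permutation over 252 splits, adjusted over 7 ratios (Python 3.11.15, numpy 2.4.6, pandas 2.3.3). Motifs were searched on both strands in the 250 bases before each RefSeq start site in GRCm38.p6, and overlaps and exons come from GENCODE M21. All 9 members had at least 1 window, 13 in all. Members, lists, ratios and tests were chosen with earlier results of these data known, so no list is independent evidence. The named genes were the 9 members, from each list the called genes with the largest fold changes (up to 4 in each direction) or otherwise up to 2 with the largest, and the 3 genes nearest in profile to each member; other genes named beside them were chosen after their values were seen. A partner gene that the rule covers is not reported here. Tried as alternatives were upper quartile and median-ratio scaling, library totals without the 21 Mup genes, other filters and pseudocounts (0.01 and 1), 1 row per symbol, voom, treat, a block for the replicate number, and each mouse left out by itself. Leaving out each mouse after scaling, and the lists without AdVEGF 4, were chosen after seeing the data. Set tests were not run.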

Additional observations from a re-analysis of the deposited data

Results flagged for a closer look

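Among 32 groups of 5 values tested (the 9 factors and 7 ratios in each group), 3 had a sample farther from the others than Dixon's 95% limit of 0.71 of the range, where chance gives about 1 in 20. Nr1i3 in AdCMV 5 was at 24.2 RPKM, with the other AdCMV livers between 13.1 and 15.6 RPKM. Nr1i3 in AdVEGF 4 was at 30.6 RPKM, with the other AdVEGF livers between 10.0 and 15.7 RPKM. The ratio of Nr1i3 to Hnf4a in AdVEGF 4 was 0.639, with the others between 0.207 and 0.273. Tomm40l, which overlaps Nr1i3 on the opposite strand, was also highest of its group in those livers, at 14.6 and 23.3 RPKM.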

How the results depend on the processing

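The rise of Foxa3 kept its direction under every alternative run and its adjusted p stayed under 0.05 in all of them except treat, whose null is a log2 fold change of 1. Leaving out each mouse in turn gave between 1425 and 2357 rows called higher (lowest without AdCMV 4, highest without AdCMV 3) and between 178 and 225 lower, with 0 to 1 members called at the fold change of 1; after median-ratio scaling it gave 1014 to 1133 and 383 to 456, with 1 to 3 members past an adjusted p of 0.05 at any fold change. The rows called higher, 1808, moved by over 1.5 times under median-ratio scaling (1082), upper quartile scaling (1169), library totals without the Mup genes (1144), a pseudocount of 1 (954), voom with median-ratio scaling (1136) and treat (503). Other filters, a pseudocount of 0.01, 1 row per symbol and voom without scaling gave 1596 to 1993. The rows called lower, 214, became 436, 366 and 384 under the 3 scalings, 475 under voom with scaling and 36 under treat, with 147 at a pseudocount of 1. Members past an adjusted p of 0.05 were 3 under median-ratio scaling with limma or voom, and 0 under treat.

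The replicate numbers on the labels were not taken as a pairing, since same-numbered mice correlated by 0.0076 to 0.29 in their deviations from the group means. With the replicate number as a block, 1933 rows were called higher and 256 lower, and with the block and median-ratio scaling 1081 and 475, with 2 members at any fold change, Foxa3 and Hnf4a, while Cebpb was at -0.55 (adjusted p 0.0575). The paired ratio test cannot go below 0.0625.

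Values that turned sign under scaling were those of Cebpa (-0.23 median-ratio, -0.15 upper quartile, -0.17 without Mup, -0.23 voom, -0.23 with the block), Prox1 (-0.25, -0.18, -0.19, -0.22 and -0.25) and Onecut1 (-0.060, -0.031 with voom and -0.060 with the block). With a mouse left out, the deposited value ranged from -0.18 to 0.21 for Foxa2, from -0.037 to 0.34 for Prox1 and from -0.38 to 0.025 for Nr1i3, and the scaled value from -0.18 to 0.16 for Foxa1 and from -0.35 to 0.47 for Onecut1. The log2 difference of the ratio of Nr1i3 to Hnf4a ranged from -0.26 to 0.15. The cause was not tested. Depth limits Onecut1 and Foxa1 most, with as few as 12 and 49 reads.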
